A study of Mus musculus with 20 samples.

Results

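Serpins are protease inhibitors and cathepsins are mostly lysosomal proteases, and both families were followed here in bulk RNA from mouse 4T1 mammary carcinomas and their lung metastases. Members were taken by gene name: every gene whose symbol starts with Serpin, or is Cts plus 1 letter, except Serping1 and Ctsg. The rule found 38 genes, 25 serpins and 13 cathepsins, among 15465 named genes with values in the breast cancer libraries. The 8 libraries were 4 BC primary tumours and 4 BC lung metastases, 1 of each from mice 1 to 4, all with the genotype label 4T1 derived and the time label 28 days. 4T1 is a mouse mammary carcinoma line that spreads spontaneously from the mammary gland to the lung, and the tumours were grown in an orthotopic model, that is, in the organ of origin. Every mouse carried the same line, and the groups used here hold no tumour-free mammary gland or lung. RNA came from bulk tumour tissue, so host cells of the mammary gland or the lung can be part of each library. In such bulk samples, fewer cells of a type and less RNA per cell cannot be told apart. A second tumour model of the series, a pancreatic one, was not used here.

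The libraries held 15447918 to 28995834 reads assigned to genes, and lung metastasis 3 was the shallowest. A value below is a normalised read count, the reads of a gene scaled by the authors to a library of about 1000000. At these depths a gene with no read in a library could still have a normalised read count of up to 0.101 to 0.203, the value of 3 reads, for counting error alone. A difference was called where limma, on log2(normalised read count + 1) over all 14003 genes that passed a filter on low values, gave an adjusted p under 0.05. Folds below are ratios of the group means, and log2 changes are on the log2(value + 1) scale, which understates the change of genes with low values.

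Most serpins inhibit serine proteases by a suicide mechanism: the target cleaves an exposed loop of the serpin, becomes covalently bound and is carried across the folded protein. Clade A members such as antitrypsin and antichymotrypsin are secreted, and clade B members stay mostly inside cells and guard them against their own granule or lysosomal proteases. A few serpins, such as PEDF (Serpinf1) and HSP47 (Serpinh1), inhibit no protease. Cathepsins are sorted to lysosomes through mannose 6-phosphate receptors and are activated there at low pH. Macrophages are rich in them, and secreted cathepsins can cleave matrix around tumours.

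Of 21 serpins tested, 10 were higher in the lung metastases and 1, Serpinf1, was lower. Of 13 cathepsins tested, 1, Ctse, was higher, and none was lower by limma's adjusted p. Among all genes tested, 7.18% were called higher and 1.96% lower, and the cathepsin counts lie near these shares. Whether the families differ from each other was not tested. The median log2 change was 0.97 over the serpins and -0.23 over the cathepsins, against -0.06 over all genes tested. Without the adjustment, 1 cathepsin was lower at p under 0.05 in limma, and edgeR and DESeq2 called 0 lower. The 11 higher members lay in the Serpina3 cluster (6 of 7 tested), in clade B (4 of 6 tested) and among the aspartic cathepsins (1 of 2 tested). The filter asked for a value of 1 in 4 or more libraries. Serpina3c and Serpina3m reached it in no primary tumour and so entered the fit through the metastases alone, and Serpinb2 reached it in primary tumour 3 only. The counts of tested and higher members are therefore not independent of the direction for these genes. The same holds for genes of the lists below that stayed under 1 in every library of 1 tissue, such as Tmprss4, Itih4, Tpsab1, Nkain4 and Rspo1.

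**Figure D1:**
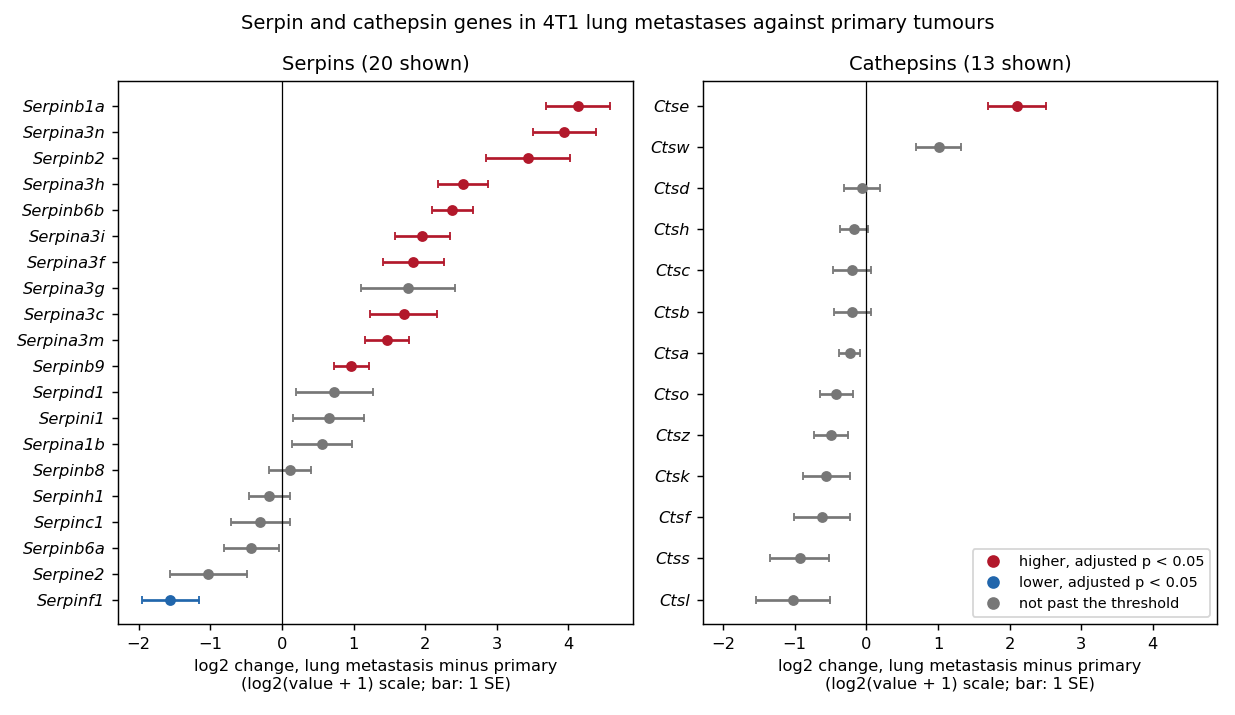
Log2 change of 20 of the 21 tested serpins (left) and of the 13 cathepsins (right), lung metastasis minus primary tumour, with 1 SE as the bar and colour for the side of the threshold. The serpins run from -1.56 (Serpinf1) to 4.13 (Serpinb1a), while 11 of the 13 cathepsins lie between -1.03 and -0.06.

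The Serpina3 genes are the mouse's multi-copy counterpart of the gene for antichymotrypsin, a liver acute-phase protein, on chromosome 12. Serpina3n, whose product inhibits granzyme B and leukocyte elastase, had 50, 62.3, 85.7 and 30.7 normalised read counts in lung metastases 1 to 4 and 2.58, 0.631, 5.56 and 3.17 in primary tumours 1 to 4. All 4 metastases were above all 4 primary tumours, and metastasis 3 was the highest. The means were 57.2 ± 23.1 and 2.99 ± 2.03 (SD, n = 4 each), a 19.1-fold difference. Serpina3n rose by 3.94 ± 0.44 (SE) on the log2 scale, with an adjusted p of 0.000457.

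Serpina3h had 18.7, 20.7, 37.4 and 13.7 in the metastases and 2.70, 4.18, 1.58 and 3.42 in the primary tumours. It is annotated as a transcribed unprocessed pseudogene in GENCODE M21, so these reads name a locus rather than a known inhibitor. The groups did not overlap, and the log2 change was 2.53 ± 0.35 (SE), with an adjusted p of 0.00146. Serpina3i had 4.31, 6.30, 11.6 and 3.82 in the metastases and 0.517, 1.46, 1.08 and 0.317 in the primary tumours. Metastasis 3 was again the highest, and Serpina3i rose by 1.96 ± 0.38 (SE), with an adjusted p of 0.00964.

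Serpina3f, Serpina3c and Serpina3m were called at lower levels. Serpina3f had 9.49, 3.77, 4.73 and 3.87 in the metastases and 0.358, 2.17, 0 and 1.06 in the primary tumours, with a log2 change of 1.83 and an adjusted p of 0.0230. Serpina3c had 4.86, 1.89, 8.38 and 1.13 against 0.437, 0, 0.708 and 0.247, with a log2 change of 1.70 and an adjusted p of 0.0480. Serpina3m had 1.94, 2.06, 3.24 and 1.55 against 0.437, 0.0789, 0.0674 and 0, with a log2 change of 1.47 and an adjusted p of 0.0133. In none of these 3 genes did the groups overlap, but the primary tumours held few reads of each. The adjusted p of Serpina3f was 0.0525 with the mouse as a block, 0.0572 with a pseudocount of 0.1, 0.174 with edgeR and 0.0537 with DESeq2. Its call was also lost without metastasis 1, primary tumour 1, 3 or 4, at adjusted p 0.0569 to 0.0737, and its fold went from 6.10 to 11.6 without primary tumour 2. The adjusted p of Serpina3c was 0.0948 with a pseudocount of 5, 0.0513 with median-ratio scaling and 0.0764 with edgeR. Its call was lost on leaving out any single library except metastasis 4, at adjusted p 0.0586 to 0.130, and its 11.7-fold difference became 7.55-fold without metastasis 3 and 17.8-fold without primary tumour 3. That of Serpina3m was lost without primary tumour 4, at 0.0525, and its 15.1-fold difference became 45.1-fold without primary tumour 1.

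Serpina3g, whose product stays inside cells and inhibits cysteine cathepsins, had the largest normalised read count of the cluster and was not called. It had 127, 33.3, 58.3 and 28.9 in the metastases and 16.5, 31.6, 2.90 and 25.8 in the primary tumours. The metastasis exceeded the primary tumour in 4 of 4 mice, yet the groups overlapped and the log2 change of 1.76 ± 0.66 (SE) had an adjusted p of 0.137. The log2 change was 1.09 without primary tumour 3, the lowest library. Serpina3k did not pass the filter, with at most 31 reads in a library. Summed over the 8 genes, the cluster gave 216, 130.5, 210.2 and 84.7 in metastases 1 to 4 and 23.9, 40.2, 12.2 and 35.1 in primary tumours 1 to 4. The sum was 5.76-fold higher in the metastases and stood without overlap, and Serpina3n and Serpina3g made up most of it.

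**Figure D2:**
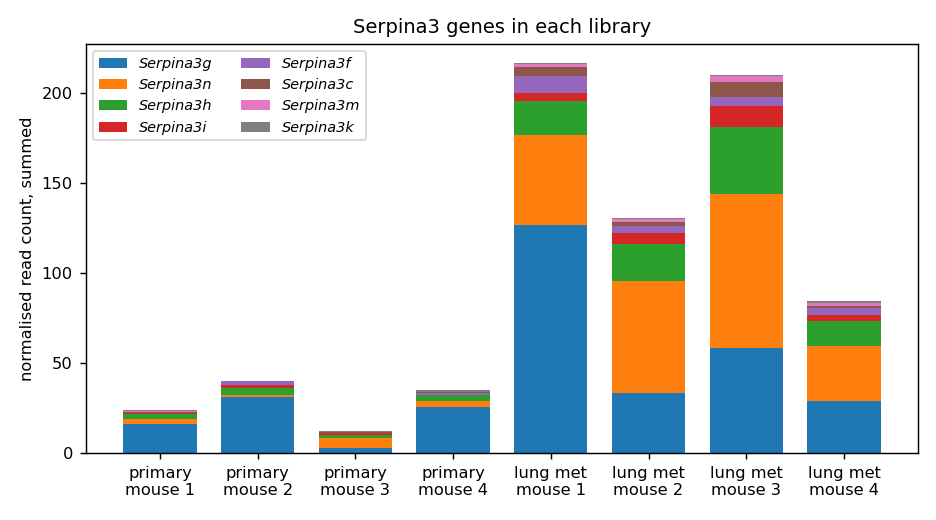
Stacked normalised read counts of the 8 Serpina3 genes in each library, primary tumours on the left and lung metastases on the right, 1 bar per mouse and tissue. The bars of the 4 metastases reach 84.7 to 216 and those of the 4 primary tumours 12.2 to 40.2.

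Reads of these copies may be split between them. In GENCODE M21, 24.4% of the 50-base windows of the Serpina3h transcript are shared with another gene, mostly Serpina3i. The share is 19.1% for Serpina3m, 16.0% for Serpina3g, 15.4% for Serpina3i, 10.7% for Serpina3f, 6.90% for Serpina3n and 4.25% for Serpina3c. How the authors assigned reads that match several copies is not given in the sources used here, so the values of single Serpina3 genes other than the less shared Serpina3n and Serpina3c are uncertain, while their sum is less exposed to it.

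The 250 bases before the start sites are shown for Serpina3n, the strongest riser of the cluster, Serpina3c, whose window is the most like it, and Serpina3f and Serpina3i, together with Serpinb2 and Ctsd, the cathepsin with the highest mean normalised read count over the 8 libraries. They come from RefSeq on GRCm38.p6 and are written 5′ to 3′ on the gene's strand. RefSeq start sites were matched for 28 of the 38 members. In the serpins, capitals mark TTCNNNGAA, the core of sites bound by STAT factors, and TATAAA, the TATA box, on either strand. In Ctsd, capitals mark CACGTG, the E-box core.
Serpina3n, chr12:104406458-104406707, plus strand: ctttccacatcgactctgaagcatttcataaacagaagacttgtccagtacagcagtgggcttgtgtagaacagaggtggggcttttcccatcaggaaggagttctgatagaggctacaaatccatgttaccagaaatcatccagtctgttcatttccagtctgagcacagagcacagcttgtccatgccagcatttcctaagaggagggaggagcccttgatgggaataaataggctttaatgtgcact
Serpina3c, chr12:104153873-104154122, minus strand: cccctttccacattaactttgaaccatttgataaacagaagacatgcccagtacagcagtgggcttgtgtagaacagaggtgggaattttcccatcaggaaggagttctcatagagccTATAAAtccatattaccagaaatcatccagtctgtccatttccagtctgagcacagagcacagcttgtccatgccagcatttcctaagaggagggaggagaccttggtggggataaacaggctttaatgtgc
Serpina3i, chr12:104262872-104263121, plus strand: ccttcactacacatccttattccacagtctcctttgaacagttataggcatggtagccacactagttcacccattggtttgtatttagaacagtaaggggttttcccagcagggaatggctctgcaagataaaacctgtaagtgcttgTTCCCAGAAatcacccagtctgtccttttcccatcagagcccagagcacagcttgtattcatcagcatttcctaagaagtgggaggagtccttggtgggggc
Serpina3f, chr12:104214294-104214543, plus strand: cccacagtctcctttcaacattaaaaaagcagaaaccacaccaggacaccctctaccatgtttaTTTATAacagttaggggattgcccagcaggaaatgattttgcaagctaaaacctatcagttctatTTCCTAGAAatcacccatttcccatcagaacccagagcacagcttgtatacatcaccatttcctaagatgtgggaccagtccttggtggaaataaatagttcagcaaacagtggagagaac
Serpinb2, chr1:107511173-107511422, plus strand: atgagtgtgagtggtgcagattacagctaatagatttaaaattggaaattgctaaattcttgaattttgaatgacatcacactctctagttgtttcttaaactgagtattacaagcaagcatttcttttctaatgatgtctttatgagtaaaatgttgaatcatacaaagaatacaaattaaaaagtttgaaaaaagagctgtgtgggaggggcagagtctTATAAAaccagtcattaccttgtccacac
Ctsd, chr7:142387828-142388077, minus strand: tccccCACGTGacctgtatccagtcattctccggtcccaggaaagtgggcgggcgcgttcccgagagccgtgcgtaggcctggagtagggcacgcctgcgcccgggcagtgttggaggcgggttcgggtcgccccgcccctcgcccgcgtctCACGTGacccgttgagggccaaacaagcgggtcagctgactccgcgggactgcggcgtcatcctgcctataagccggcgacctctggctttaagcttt
Serpina3n and Serpina3c are 92.7% identical over this window. TTCNNNGAA was found before 3 of 5 Serpina3 genes (Serpina3f, Serpina3g and Serpina3i), 5 of 19 serpins in all and 1 of 9 cathepsins (Ctsc). By window this was 4 of 6, 6 of 22 and 1 of 10, against 7.02% of 32851 promoter windows of the same length. The Serpina3f and Serpina3i windows shown are 82.2% identical over aligned bases, so their matches are not independent. For the next motifs, members are counted by gene, with a match in any window, and the background by window. CACGTG was found before 4 of 9 cathepsins (Ctsa, Ctsd, Ctsf and Ctsl) and none of 19 serpins, against 6.02% of all windows. TATAAA was found before 3 of 19 serpins and 1 of 9 cathepsins, against 12.4% of all windows. TGACTCA, the AP-1 core, was found before 2 of 19 serpins and none of 9 cathepsins, against 4.46%. The motifs were searched on both strands and do not overlap one another. A match is a description of the sequence. Serpina3n, with a 19.1-fold difference, has none of these motifs in its window. The first bases after the RefSeq start sites of Serpina3n, Serpina3c and Serpina3g were not found in their GENCODE M21 transcripts, so these windows may not lie before the start used in these tissues. Serpinb2 has 2 RefSeq start sites: the window shown, before the upstream one, holds TATAAA, and the window before the downstream one also holds TTCNNNGAA.

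Clade B held the largest change of any member. Serpinb1a, an inhibitor of the neutrophil proteases elastase, cathepsin G and proteinase-3, had 48.7, 45.4, 149.9 and 42.5 in metastases 1 to 4 and 5.60, 1.46, 2.16 and 2.11 in primary tumours 1 to 4. Metastases 1, 2 and 4 lay close together and metastasis 3 stood far above them. The means were 71.6 ± 52.2 and 2.83 ± 1.87 (SD, n = 4 each), a 25.3-fold difference, which became 16.1-fold without metastasis 3. Serpinb1a rose by 4.13 ± 0.45 (SE) on the log2 scale, with an adjusted p of 0.000376.

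Serpinb2, plasminogen activator inhibitor 2, had 18.5, 21.7, 3.31 and 28.9 in the metastases and 0.0397, 0.197, 1.72 and 0.247 in the primary tumours. Mouse 3 had both the lowest metastasis and the highest primary tumour, and the groups still did not overlap. The metastasis was 1.93 times the primary tumour in mouse 3, while the primary tumours of the other mice were all at 0.247 or below. Serpinb2 rose by 3.43 ± 0.59 (SE), with an adjusted p of 0.00474, and its 32.8-fold difference became 112-fold without primary tumour 3.

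Serpinb6b had 29.0, 44.8, 47.8 and 27.1 in the metastases and 6.72, 4.73, 4.65 and 9.12 in the primary tumours. Its paralog Serpinb6a, an inhibitor of cathepsin G and trypsin-like proteases, was the more abundant per kilobase of transcript, at mean levels of 184 in the metastases and 223 in the primary tumours against 17.0 and 2.88 for Serpinb6b. Serpinb6a was not called, with normalised read counts of 115 to 499 in the metastases and 265 to 451 in the primary tumours. Serpinb6b rose by 2.38 ± 0.29 (SE), with an adjusted p of 0.000680, while Serpinb6a had a log2 change of -0.43 and an adjusted p of 0.537. The transcripts share few 50-base windows with other genes, 3.12% and 2.68%. Whether the log2 changes of the paralogs differ was not tested.

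Serpinb9, the inhibitor with which lymphocytes and other cells protect themselves from granzyme B, had 69.2, 76.1, 86.9 and 46.1 in the metastases and 31.3, 38.9, 25.3 and 43.4 in the primary tumours. The metastasis of mouse 4 was only 1.06 times its primary tumour, and the fold over the means was 2.00. The log2 change was 0.97 ± 0.24 (SE), with an adjusted p of 0.0294. With the mouse as a block the adjusted p was 0.0719, and it was 0.0780 without metastasis 1, 0.0782 without metastasis 2, 0.0886 without primary tumour 1 and 0.0931 without primary tumour 3. Serpinb8, a furin inhibitor, lay at 3.72 to 6.47 in the metastases and 3.43 to 6.16 in the primary tumours, with a log2 change of 0.11 and an adjusted p of 0.855. Of the other clade B genes, Serpinb9b (at most 39 reads in a library) and the pseudogene Serpinb10-ps (at most 101) did not pass the filter.

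**Figure D3:**
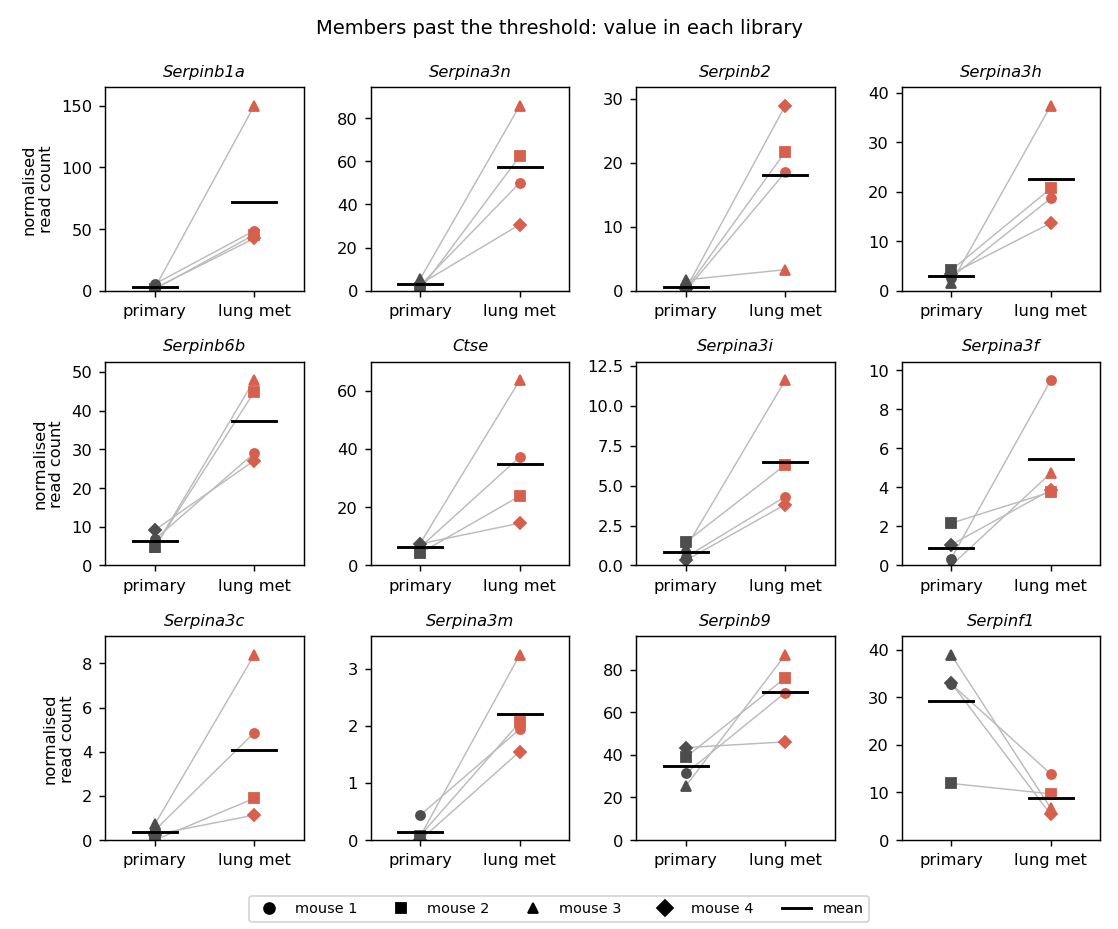
Normalised read count of the 12 called members in each library, with a line joining the primary tumour and the lung metastasis of a mouse and a black bar at the group mean. In every panel but that of Serpinf1 all 4 metastases lie above all 4 primary tumours, and mouse 3 holds the highest metastasis in 9 of the 11 higher members. The shares among all genes called were not counted, so whether either count is particular to these members is not known.

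Serpinf1, which encodes the secreted anti-angiogenic protein PEDF, was the only member called lower. It had 13.9, 9.71, 6.69 and 5.38 in metastases 1 to 4 and 32.8, 11.9, 38.9 and 33.0 in primary tumours 1 to 4. Each metastasis was below the primary tumour of its mouse, and the groups overlapped because primary tumour 2 was low. Serpinf1 fell by 1.56 ± 0.40 (SE) on the log2 scale, with an adjusted p of 0.0347, and its mean was 3.27-fold higher in the primary tumours. With the mouse as a block the adjusted p was 0.0537. Leaving out 1 library gave 0.0656 without metastasis 2, 0.0634 without metastasis 4, 0.108 without primary tumour 1, 0.112 without primary tumour 3 and 0.116 without primary tumour 4. The 9 fibroblast and matrix markers moved in part with it: 3 were lower and 1 higher. Their sum was 1318 to 2440 in the metastases and 805 to 2621 in the primary tumours, lowest in primary tumour 2. Over the primary tumours the sum had the order of Serpinf1 (3, 4, 1, 2). Over the metastases it did not, with 2, 4, 1, 3 for the sum and 1, 2, 3, 4 for Serpinf1. The part of fibroblast content in the Serpinf1 difference was not tested.

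Serpinh1, the collagen chaperone HSP47 of the endoplasmic reticulum, had 360, 498, 201 and 522 in the metastases and 385, 464, 437 and 393 in the primary tumours. The metastases spread on both sides of the tightly grouped primary tumours, and the log2 change was -0.18, with an adjusted p of 0.749. Of 15 collagen folding partners of Serpinh1, among them prolyl and lysyl hydroxylases and collagen chains, limma, edgeR and DESeq2 called none in either direction. Without the adjustment, 2 were lower at p under 0.05 in limma, and the median log2 change over the list was -0.16. Serpini1, neuroserpin, which inhibits tissue plasminogen activator, lay at 0 to 3.95 in the metastases and 0.438 to 1.14 in the primary tumours. The Serpini1 log2 change of 0.65 had an adjusted p of 0.463, or 0.0386 without metastasis 4, the library at 0.

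Clade E inhibitors act on plasminogen activators and thrombin. Serpine2, protease nexin-1, had 640, 250, 180 and 130 in metastases 1 to 4 and 404, 1328, 337 and 366 in primary tumours 1 to 4. Primary tumour 2 stood apart from the other 3, and the log2 change of -1.03 ± 0.54 (SE) had an adjusted p of 0.279. Serpine3 did not pass the filter, with at most 50 reads in a library. Among 11 other tested genes of plasminogen activation, 2 were higher by limma and edgeR and 3 by DESeq2, none was lower by any of them, and the median log2 change was 0.12. Plat, tissue plasminogen activator, was at 43.3 ± 8.45 against 19.2 ± 2.87 (SD, n = 4 each), with an adjusted p of 0.00777. Thbd, thrombomodulin, was at 196 ± 164 against 8.00 ± 3.31, with an adjusted p of 0.000314. Plau, urokinase, was not called, at a log2 change of -0.77 and an adjusted p of 0.409.

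The secreted plasma inhibitors were near the lower end of the measured range. Serpina1b, an alpha-1-antitrypsin, lay at 2.38 to 11.0 in the metastases and 2.01 to 5.25 in the primary tumours, with a log2 change of 0.56 and an adjusted p of 0.464. In GENCODE M21, 35.8% of its 50-base windows are shared with another gene, mostly Serpina1d. Serpinc1, antithrombin, lay at 1.28 to 6.64 and 2.64 to 5.87, with a log2 change of -0.30 and an adjusted p of 0.701. Serpind1, heparin cofactor II, lay at 0 to 5.88 and 0.211 to 1.39, with a log2 change of 0.73 and an adjusted p of 0.455. These 3 liver products overlapped between the tissues, and of 8 hepatocyte markers 2 had values, summing to 1.57 to 6.97 in the metastases and 2.05 to 3.37 in the primary tumours.

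By normalised read count, not scaled to transcript length, the cathepsins summed higher than the serpins in both tissues. The serpins, without Serping1, summed to 1057 to 1763 in the metastases and 1194 to 2367 in the primary tumours. Summed over 13 genes, the cathepsins reached 5870, 6080, 3697 and 6268 normalised read counts in metastases 1 to 4 and 7195, 7351, 7048 and 7021 in primary tumours 1 to 4. The groups of sums did not overlap, and metastasis 3 was the lowest library. Per kilobase of transcript, the mean level in the primary tumours was 841 for Ctss, 783 for Ctsd, 339 for Ctsz, 285 for Ctsl and 237 for Ctsb. In the metastases Ctsd led with 746, ahead of Ctss with 470, Ctsz with 249, Ctsb with 206 and Ctsl with 168. These levels rest on the principal transcript of GENCODE M21, which is 6168 bases long for Ctsl. A shorter form would give Ctsl a higher level, so its place in these orders depends on the transcript used. The order between genes was not tested.

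Ctse and Ctsd are the aspartic cathepsins. Ctse, found in the endosomes of epithelial and immune cells, had 37.2, 23.8, 63.5 and 14.5 in metastases 1 to 4 and 6.28, 4.26, 7.62 and 7.43 in primary tumours 1 to 4. Every metastasis was above every primary tumour, and the fold over the means of 34.8 ± 21.4 and 6.40 ± 1.54 (SD, n = 4 each) was 5.43. Ctse rose by 2.10 ± 0.41 (SE) on the log2 scale, with an adjusted p of 0.00954. Ctsd, the main lysosomal aspartic protease, had 1412, 1654, 1510 and 1772 in the metastases and 1854, 1638, 1843 and 1325 in the primary tumours, with a log2 change of -0.06 ± 0.26 (SE) and an adjusted p of 0.910. Ctsd had nearly equal means in both tissues, 1587 and 1665. Of its 50-base windows, 36.6% are shared with another gene, mostly Gm49369.

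None of the 10 cysteine cathepsins was called by limma or edgeR, and 9 of them had a negative log2 change. At an unadjusted p under 0.05, limma had 1 higher and 1 lower, and DESeq2 called 1 higher. Ctsl, a broad endopeptidase, had 1143, 1133, 246 and 1622 in the metastases and 1538, 2221, 1453 and 1813 in the primary tumours. It was lower in the metastasis in 4 of 4 mice, with metastasis 3 far below the rest, and the log2 change of -1.03 ± 0.52 (SE) had an adjusted p of 0.264. Ctss, the cathepsin of antigen-presenting cells that trims the invariant chain, had 782, 782, 241 and 743 in the metastases and 1244, 646, 1381 and 1289 in the primary tumours. Primary tumour 2 was the lowest of its group and metastasis 3 the lowest of all. The log2 change of Ctss was -0.93 ± 0.41 (SE), with an unadjusted p of 0.0476 and an adjusted p of 0.212 in limma. Ctsz, a carboxypeptidase, had 426, 407, 213 and 391 against 486, 526, 481 and 463. Its groups did not overlap, and the log2 change of -0.49 ± 0.24 (SE) had an adjusted p of 0.243.

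Ctsb, an endopeptidase and dipeptidyl carboxypeptidase, had 1128, 1070, 692 and 1024 in the metastases and 1023, 1492, 920 and 1061 in the primary tumours. Ctsc, the dipeptidyl peptidase that activates granule serine proteases of leukocytes, had 424, 452, 200 and 254 against 399, 320, 343 and 388. Both overlapped between the tissues, with a log2 change of -0.20 each and adjusted p of 0.680 and 0.689. Ctsw, expressed mainly in cytotoxic T and NK cells, was the one cysteine cathepsin with a positive change, at 3.34 to 5.48 in the metastases and 0.710 to 2.34 in the primary tumours. The groups of Ctsw did not overlap, and its log2 change of 1.01 ± 0.32 (SE) had an adjusted p of 0.0793, or 0.0338 with DESeq2. Beside it, the 9 T and NK cell markers summed to 27.1 to 73.2 in the metastases and 4.79 to 21.2 in the primary tumours, and 2 of 8 tested were higher. Their part in the Ctsw values was not tested.

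Of the remaining cathepsins, Ctsf lay at 6.76 to 17.9 in the metastases and 8.95 to 24.7 in the primary tumours (log2 change -0.62, adjusted p 0.373). Ctsk, the collagenase of osteoclasts, lay at 11.2 to 28.7 and 17.6 to 43.5 (log2 change -0.56, adjusted p 0.342). Ctso lay at 33.5 to 56.7 and 45.6 to 79.6 (log2 change -0.42, adjusted p 0.302). All overlapped between the tissues. The aminopeptidase Ctsh lay at 208 to 277 and 201 to 327 (log2 change -0.17, adjusted p 0.639). The serine carboxypeptidase Ctsa, which protects beta-galactosidase and neuraminidase in the lysosome, lay at 174 to 211 and 197 to 232 and was lower in the metastasis in 4 of 4 mice (log2 change -0.23, adjusted p 0.383).

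**Figure D4:**
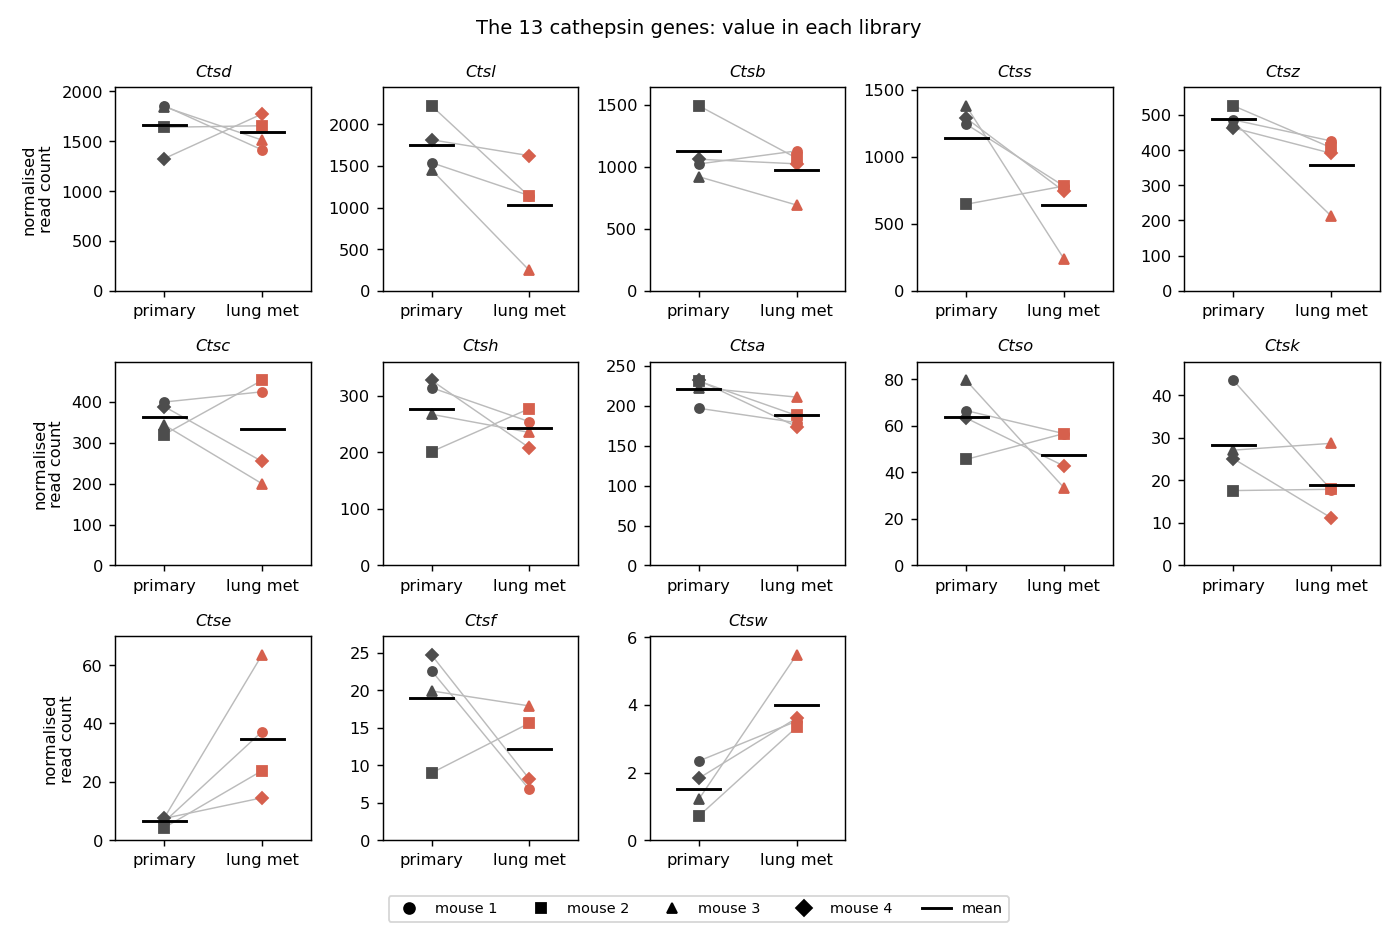
Normalised read count of the 13 cathepsins in each library, ordered by mean level, with a line joining the primary tumour and the lung metastasis of a mouse and a black bar at the group mean. Ctse and Ctsw are the genes whose metastases all lie above the primary tumours, Ctsz is the one whose metastases all lie below them, and mouse 3 has the lowest metastasis in Ctsl, Ctss, Ctsz, Ctsb, Ctsc and Ctso.

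The lysosomal genes around the cathepsins were mostly not called. Of 26 lysosomal enzymes and membrane proteins, 1, Scarb2, the receptor that carries glucocerebrosidase, was higher and none was lower by limma's adjusted p, with a median log2 change of -0.27. At an unadjusted p under 0.05, 2 of them were lower, edgeR called 0 lower and DESeq2 1. Of 8 genes of lysosomal sorting and regulation, Sort1, the sortilin sorting receptor, was higher, at 106 ± 104 against 4.60 ± 2.14 (SD, n = 4 each) with an adjusted p of 0.00178, and the median was 0.12. Of 11 tested inhibitors of cysteine cathepsins, 5 were higher and none lower by limma, edgeR or DESeq2. All 5 were stefin A genes or their relatives. Over the 4 metastases the sum of this list had the same order as the sum of the neutrophil markers (3, 1, 4, 2), of which 9 of 10 were higher. Over the primary tumours the orders differed: primary tumour 2 was lowest in the sum of this list and highest in that of the neutrophil markers. The sum of this list includes Cst3 and Cstb, which were not called, and each of the 5 higher genes was itself highest in primary tumour 2. The part of neutrophil content in these values was not tested. Stfa2 was at 300 ± 140 against 12.2 ± 14.6 (SD, n = 4 each), with an adjusted p of 0.000637, Stfa3 at 125 ± 62.0 against 3.90 ± 4.09, with an adjusted p of 0.000269, and BC100530 at 253 ± 181 against 10.9 ± 8.31, with an adjusted p of 0.000618. Stfa2l1 and Gm5483 were the others, and these genes are close copies whose reads may be split between them. Cst3, cystatin C, and Cstb were not called, with log2 changes of -0.15 and -0.19.

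Among 15 tested serine proteases that serpins inhibit or that belong to those families, 2 were higher and 1 lower by limma, with a median log2 change of 0.10. edgeR called 1 higher and 0 lower, so the lower call was lost, and DESeq2 called 3 higher and 1 lower. Gzma, granzyme A of cytotoxic lymphocytes, was at 9.30 ± 1.98 against 1.47 ± 0.828 (SD, n = 4 each), with an adjusted p of 0.00296. Tmprss4, a membrane-bound protease, was at 2.05 ± 0.891 against 0.198 ± 0.231, with an adjusted p of 0.0329. Tpsab1, a mast cell tryptase, was lower, at 0.256 ± 0.352 against 5.14 ± 4.34, with an adjusted p of 0.0232. Tmprss4 was at most 0.434 in the primary tumours and Tpsab1 at most 0.747 in the metastases. Each thus passed the filter through the other tissue alone, and its call is not independent of the direction. Of 11 tested inhibitors of other families, Timp3, a metalloproteinase inhibitor, and Itih4, an inter-alpha-trypsin inhibitor chain, were higher and none was lower by limma's adjusted p, with a median of -0.02. At an unadjusted p under 0.05, 1 was lower, and edgeR called 0 lower and DESeq2 1. Timp3 was at 114 ± 69.4 against 8.21 ± 6.94, with an adjusted p of 0.00149. Itih4 was at most 0.477 in the primary tumours, so it passed the filter through the metastases alone.

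Several lists of cell type markers, though not all, moved with the same contrast. All 10 lung epithelium markers were higher in the metastases, where they summed to 7517 to 34637 against 6.52 to 8.53 in the primary tumours. Of 10 neutrophil markers 9 were higher, with sums of 7508 to 28661 against 198 to 1171. Of 10 tested macrophage markers 1 was higher and 1 lower, with a median log2 change of -0.94 and sums of 1122 to 2045 against 1362 to 3082. At an unadjusted p under 0.05, 5 of them were lower and 1 higher. All 7 mesothelium markers were higher, with sums of 181 to 520 against 55.0 to 143, and Nkain4 and Rspo1 were at 0 in every primary tumour. Endothelium markers (4 of 8 higher) summed to 489 to 2275 against 151 to 717, and mammary epithelium markers (1 of 7 higher) to 765 to 3013 against 1302 to 2611. The lung epithelium sums separated the groups. Those of the mammary epithelium list, in which Wap and Csn2 had no values, overlapped between them. Smaller lists were those of erythroid cells (5 of 5 tested higher), B and plasma cells (2 of 2), platelets (1 of 4), mast cells and basophils (1 of 6 lower) and adipocytes (1 of 2 lower, Adipoq and Lep at 0 in every metastasis).

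Library order set the members beside these lists. Metastasis 3 had the highest sums of lung epithelium and neutrophil markers and the lowest of macrophage markers. Of the 11 members called higher, 9 were highest in metastasis 3. Ctse, Serpina3c and Serpinb1a followed the order of the lung epithelium sum over all 4 metastases (3, 1, 2, 4). That is also the order of the endothelium sum and of the mast cell and basophil sum. Scgb1a1 made up much of the lung epithelium sum, at 13234 of 19507 in metastasis 1 and 21013 of 34637 in metastasis 3. Sftpc, Sftpa1, Sftpd and Ager, also of this list, ran 3, 2, 1, 4. So did Serpina3h, Serpina3i, Serpina3m, Serpina3n, Serpinb6b and Serpinb9, and the lysosomal sorting and regulation sum. The orders of the remaining single lung epithelium markers are not given here. Serpinb2 ran in the reverse order of the lung epithelium sum (4, 2, 1, 3), which is also the order of the mammary epithelium sum. Serpina3f was highest in metastasis 1. Of the 22 tested members that were not called, 11 were lowest and 5 highest in metastasis 3. The same shares over all genes tested were not counted. Without metastasis 3, 11 of the 12 called members were still called, and Serpina3c was the one lost. The part of lung epithelium, neutrophil or macrophage content in the values of the members was not tested.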

How the data were processed

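Bulk RNA-seq was available for 20 samples, of which the 8 breast cancer libraries (4 lung metastases, 4 primary tumours of the same mice) were used. The 12 libraries of the pancreatic model were left out by the rule that chose the members and were not analysed here. The deposited signal is a gene read count that the authors divided by a scaled library size, as seen from the values: every one is a whole multiple of the value of 1 read within 0.05 reads (100% of values). Reads were aligned to mm9 per the submitters' processing notes. The authors' aligner, counting tool and gene models were not given in the sources used here.

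All genes that reached a value of 1 in 4 or more libraries were tested with limma 3.58.1 (R 4.3.3) with an intensity trend on log2(value + 1), with Benjamini-Hochberg adjustment over all genes tested and a threshold of 0.05. edgeR 4.0.16 and DESeq2 1.42.0 on the recovered reads, other pseudocounts, filters and scalings, array weights, a mouse block and each library left out were alternatives. The fit was tested on simulated data. Libraries were paired by the mouse number in their titles. The deviations of same-mouse libraries from their group means correlated at r = 0.10, -0.15, 0.03 and 0.01, so the block was kept as an alternative. Replicates are 1 tumour per mouse.

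1 serpin that entered the fit is not reported here, though counts, sums and medians over the members include it; every other member in the fit is named. Called members and the 8 others with the highest mean are given in each library, and list members are named where called, at most 6 per list. Plau, Cst3 and Cstb were named after their values were seen. The members, marker lists and gene lists were chosen with earlier results of these data known. Promoters are from RefSeq (GRCm38.p6), and shared windows from GENCODE M21 principal transcripts, in which 37 of 38 members were matched.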

Additional observations from a re-analysis of the deposited data

Results flagged for a closer look

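In 68 groups of 4 libraries (34 members in 2 tissues), 8 had a highest or lowest library that stood apart from the other 3 by Dixon's test of the gap over the range. For independent, normally distributed values, chance alone gives about 1 in 20 such groups. The values here were not logged and the genes share the same 8 libraries, so that rate need not hold. In lung metastasis 3, Ctss (241, nearest library 743) and Ctsz (213, nearest 391) were low, and Ctsw (5.48, nearest 3.61) and Serpinb1a (149.9, nearest 48.7) were high. Serpina3f was high in lung metastasis 1 (9.49, nearest 4.73). In the primary tumours, Serpinb1a was high in tumour 1 (5.60, nearest 2.16), Serpinb2 in tumour 3 (1.72, nearest 0.247) and Serpine2 in tumour 2 (1328, nearest 404). Lung metastasis 3 had the highest neutrophil sum (28661) and the lowest macrophage sum (1122) of the metastases, and primary tumour 2 the highest neutrophil sum (1171) and the lowest macrophage sum (1362) of the primary tumours. Of the primary tumours, tumour 1 had the highest sums of erythroid (167), adipocyte (257), mammary epithelium (2611) and B and plasma cell markers (5.64). Other marker sums also had their extremes in these libraries. The part of these cells in these values was not tested.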

How the results depend on the processing

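Of the 12 called members, 7 kept their call under every alternative they entered: Ctse, Serpina3h, Serpina3i, Serpina3n, Serpinb1a, Serpinb2 and Serpinb6b. The other 5 (Serpina3c, Serpina3f, Serpina3m, Serpinb9 and Serpinf1) lost it under at least 1, with their values given above. The count of genes changed, 1279, was 1985 with DESeq2, 2283 with array weights and 711 to 1603 on leaving out 1 library. Serpins higher, 10, were 5 with a filter at a value of 5, because Serpina3c, Serpina3f, Serpina3i, Serpina3m and Serpinb2 then did not enter the fit. Cathepsins higher were 2 with DESeq2, which added Ctsw. Serpins lower were 0 with the mouse as a replicate block and 0 to 1 on leaving out 1 library. The block changed no call of a member other than Serpina3f, Serpinb9 and Serpinf1. Among the members named, the log2 changes of 4 reversed sign, none of them called. With array weights they were Ctsb at 0.01, Ctsc at 0.09 and Serpinh1 at 0.02. On leaving out 1 library, the ranges were -0.37 to 0.02 for Ctsc, -0.34 to 0.12 for Serpinh1 and -0.03 to 0.26 for Serpinb8. The positive values came without lung metastasis 3 for Ctsc and Serpinh1, and the negative one of Serpinb8 without lung metastasis 2. The cause was not tested. With 4 libraries a group, members with few reads in the primary tumours have uncertain folds.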
